A study of Mus musculus with 6 samples.

Results

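The genes described here are 33 named members of the adhesion machinery of leukocytes, out of 23366 genes in the deposited count table. They are 17 integrin alpha chains, 8 integrin beta chains, P-selectin (Selp) and its ligand PSGL-1 (Selplg), the integrin ligands Icam1 and Icam2, the hyaluronan receptor Cd44, and the integrin activators Tln1, Tln2 and Fermt3. They were taken by symbol from a fixed list, chosen with earlier results of these data known, and all 33 were found. The libraries came from mouse CD4+ effector T cells of the FVB/N background, transferred into Rag-deficient hosts and taken from the mesenteric lymph nodes 6 weeks later. Mdr1+ cells (low in rhodamine 123, a dye that the transporter Mdr1 pumps out) were set against Mdr1- cells (high in the dye), with 3 libraries in each group. Both groups therefore share the kind of transfer and of host, the site and the time. The labels give neither the age of the animals nor whether a library came from 1 mouse or a pool, so the p-values cover the spread among these libraries alone, which may be technical.

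An integrin is a pair of 1 alpha and 1 beta chain that binds ligands on other cells or in the matrix, and most integrins on resting T cells are held in an inactive shape. Signals inside the cell bring talin and kindlin-3 (encoded by Tln1 and Fermt3) to the tail of the beta chain, which switches the pair to its binding state. In T cells the pair of Itgal and Itgb2 is LFA-1, which binds ICAMs, the pair of Itga4 and Itgb1 is VLA-4, which binds VCAM-1 and fibronectin, and the pair of Itga4 and Itgb7 binds MAdCAM-1 on gut vessels. PSGL-1 and CD44 take part in the earlier rolling step on the vessel wall.

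Libraries held 2220691 to 20771456 counts in genes, and the smallest, of Mdr1+ replicate 3, lay far from the other 5 on principal component 1 of log2 expression. The counts of both replicate 3 libraries were first returned to their genes, as the processing account describes. Markers of T cells summed to 5191 to 6105 CPM (counts scaled to the library total, here and below with TMM factors) in Mdr1+ and to 5282 to 6185 CPM in Mdr1- libraries. The 11 myeloid markers found in the table summed to 12.9 to 30.2 CPM in Mdr1+ libraries, and in Mdr1- libraries to 16.5, 10.9 and 102.7 CPM for replicates 1, 2 and 3. Stromal markers, 11 in number, summed to 1.83 to 2.15 CPM in Mdr1+ and 6.96 to 9.17 CPM in Mdr1- libraries. Acta2, the 1 tested among them, fell in Mdr1+ cells, where 1.95% of all tested genes did. The part of stromal cells in any adhesion result was not tested. A list of 27 cell cycle genes, of which 23 fell in Mdr1+ cells where 1.95% of all tested genes did, summed to 1324 to 1631 CPM in Mdr1+ against 4289 to 6118 CPM in Mdr1- libraries. Its part in any adhesion result was not tested. In such bulk libraries, fewer cells of a type and less RNA per cell cannot be told apart.

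Of the 33 genes 20 passed the filter on low counts, 10 of them alpha chains and 4 beta chains, beside Selplg, Icam1, Icam2, Cd44, Tln1 and Fermt3. The abundant chains were Itgal and Itga4 among alpha chains and Itgb7, Itgb2 and Itgb1 among beta chains. Per kilobase of merged exons in the GENCODE M21 annotation, Itgal averaged 112 CPM per kb in Mdr1+ and 103.4 CPM per kb in Mdr1- cells, and Itga4 averaged 87.5 CPM per kb in Mdr1+ and 78.9 CPM per kb in Mdr1- cells. Their ranges over libraries did not overlap in either group. The next alpha chains on the same scale were Itga6, which encodes the laminin-binding alpha 6 chain, at 18.1 CPM per kb in Mdr1+ and 17.2 CPM per kb in Mdr1- cells, and Itgav, which encodes the alpha V chain, at 8.30 and 8.51 CPM per kb in Mdr1+ and Mdr1- cells.

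Among beta chains the order per length was Itgb7, Itgb2, Itgb1 and Itgb3. Itgb7 averaged 404.5 CPM per kb in Mdr1+ and 490.3 CPM per kb in Mdr1- cells. Itgb2, the shared chain of leukocyte integrins, averaged 255.1 CPM per kb in Mdr1+ and 232.8 CPM per kb in Mdr1- cells, and Itgb1 averaged 126.4 and 111.1 CPM per kb in Mdr1+ and Mdr1- cells. Itgb3, a partner of Itgav, averaged 22.2 CPM per kb in Mdr1+ and 27.9 CPM per kb in Mdr1- cells. The library ranges of neighbours in this order did not overlap within a group. The exons the authors counted over are not stated in the sources, so levels per length are approximate.

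**Figure D1:**
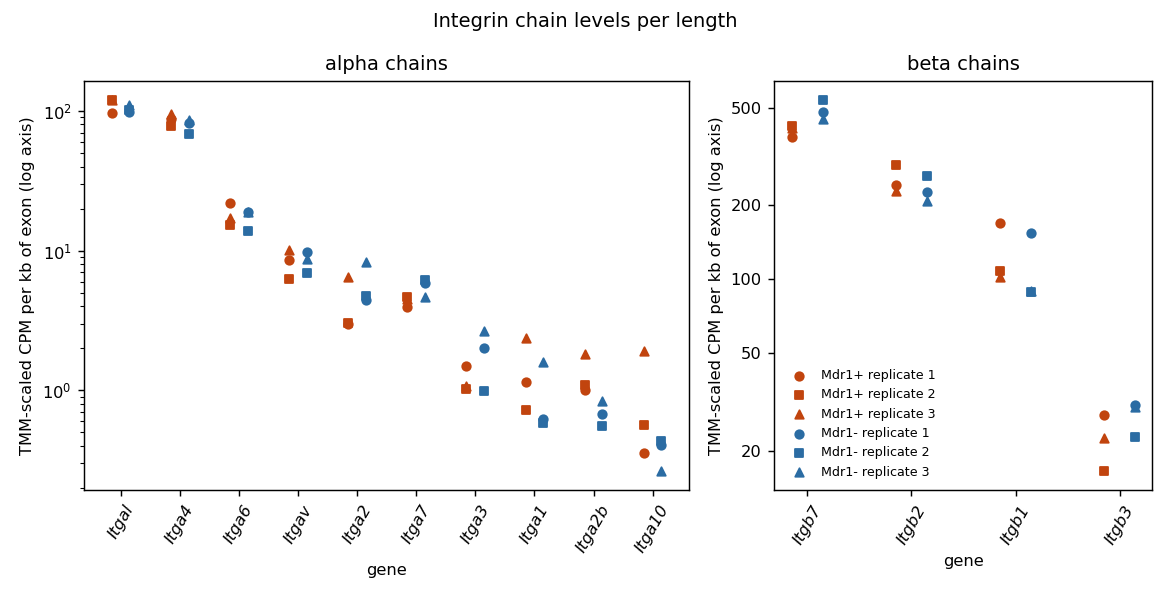
TMM-scaled CPM per kb of merged exons (y axis, log) of the tested alpha chains (left) and beta chains (right), 1 point per library, Mdr1+ left of Mdr1- for each gene. Itgal and Itga4 lie between 68.7 and 120.5 CPM per kb in all 6 libraries, and Itgb7 lies highest of the beta chains in both groups.

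The other 13 genes were too low to test. No read of Itga8, Itga11 or Itgb6, chains of stromal and epithelial cells, was counted in any library, where a count of 0 allows up to 3 counts, or 0.144 to 1.35 CPM before TMM scaling (counting error only). The beta chain genes Itgb4 and Itgb5 reached at most 2 and 7 counts, and Selp at most 2 counts. Itgam, Itgax and Itgad encode alpha chains of myeloid and dendritic cells and are next to each other in the genome, in the RefSeq GRCm38.p6 gene order. Itgam was at 0.498, 0.234 and 0 CPM in Mdr1+ libraries and 1.34, 0.865 and 2.21 CPM in Mdr1- libraries. Itgax was at 0.498, 0.467 and 0 CPM in Mdr1+ libraries and 0.893, 2.51 and 0.849 CPM in Mdr1- libraries. Itga9 and Itgb8, other alpha and beta chain genes, had at most 5 and 11 counts in a library.

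Itga5, which encodes the alpha chain of the fibronectin receptor, was counted in 1 library, with 32 counts (5.43 CPM) in Mdr1- replicate 3 and 0 counts in the other 5. The same library held the highest Itgad level, at 2.72 CPM against at most 0.187 CPM in Mdr1+ libraries and 0.446 CPM in the other Mdr1- libraries. It also held the highest sum of myeloid markers, given above, with Cd14 at 23.6 CPM against at most 0.943 CPM in Mdr1+ libraries and 0.112 CPM in the other Mdr1- libraries. Of the same markers, Cd68, Mpo and Ly6c2 were instead highest in Mdr1+ libraries. They reached 17.9, 5.66 and 0.701 CPM there, against 17.5, 0.679 and 0.34 CPM in Mdr1- replicate 3. Itgax was highest in Mdr1- replicate 2, at 2.51 CPM against 0.849 CPM in Mdr1- replicate 3. The part of myeloid cells in these values was not tested. Tln2, the second talin gene, was at 3, 10 and 0 counts in Mdr1+ and 10, 47 and 13 counts in Mdr1- libraries. In CPM it measured at most 0.498 in Mdr1+ and reached 4.06 in Mdr1- libraries. The count of 0 in Mdr1+ replicate 3 allows up to 1.35 CPM before TMM scaling.

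The comparison of Mdr1+ with Mdr1- cells asks whether effector cells with Mdr1 activity carry other adhesion transcripts than those without it. Of the 20 tested genes 0 rose and 0 fell in Mdr1+ cells in edgeR's quasi-likelihood test, where 0.275% of all 10897 tested genes rose and 1.95% fell. Adjusted p-values of the 20 genes were 0.47 to 0.99, and 0 had an unadjusted p under 0.05, against 11.9% of all tested genes. DESeq2 also called 0 adhesion genes, against 4.04% of its genes. It gave an unadjusted p under 0.05 for 3 adhesion genes (Itgad, Itgam and Tln2, all low and chosen after their values were seen), against 9.30% of its genes. Log2 fold changes (Mdr1+ over Mdr1-) had a median of 0.06, against 0.04 over all tested genes. Their median size was 0.21 regardless of sign, against 0.25 over all tested genes.

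The intervals bound how far the groups could differ. For 14 of the 20 genes the 95% interval of the log2 fold change lay within -1 to 1, so that a 2-fold difference lay outside it. Itga1, Itga2, Itga2b, Itga3, Itga10 and Icam1 had intervals that crossed one of these bounds, the widest being -0.38 to 2.73 for Itga10. Those intervals come from the model with group as its term. With the replicate number as a block, described below, 16 of the 20 intervals lay within -1 to 1.

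**Figure D2:**
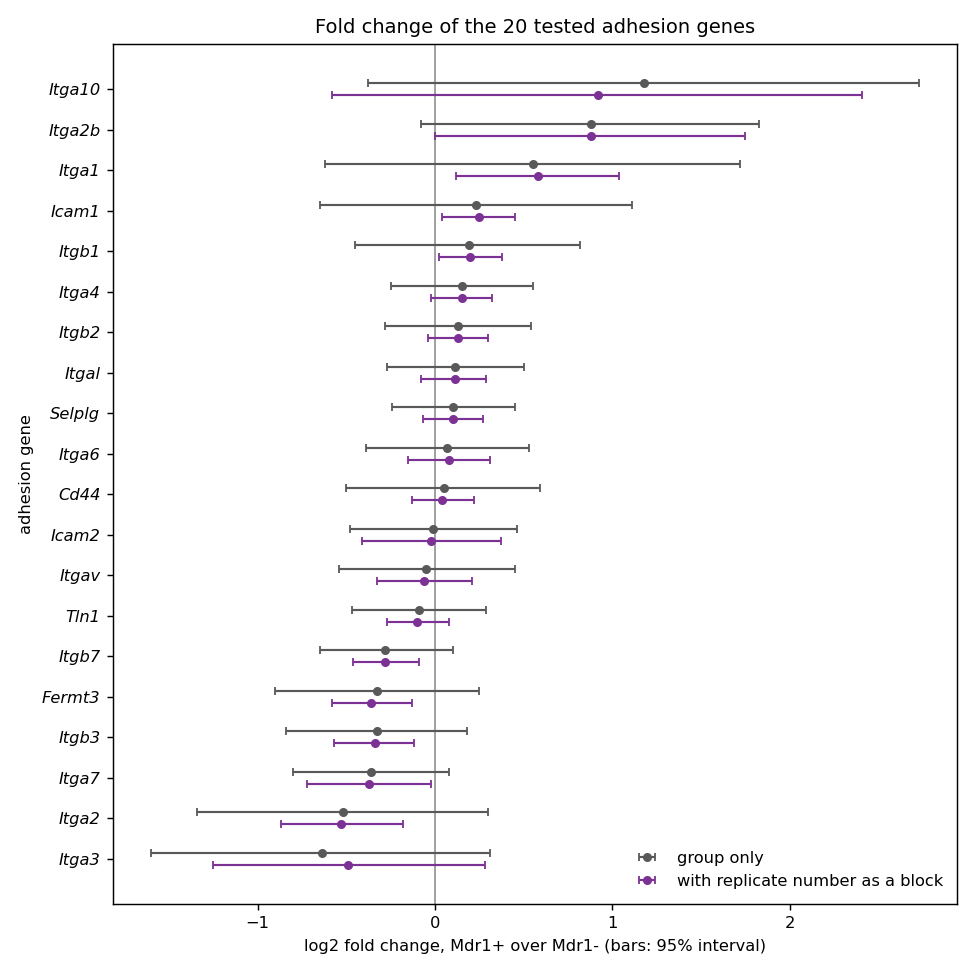
Log2 fold change of Mdr1+ over Mdr1- (x axis) for the 20 tested adhesion genes (y axis), with 95% intervals, from edgeR fits with group as the term (grey) and with the replicate number as a block (purple). All grey intervals include 0, and Fermt3 is the gene that passed after adjustment over all tested genes with the block (-0.36, adjusted p = 0.048).

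Libraries with the same replicate number deviated together across genes, so values from a model that blocks on the replicate number are given beside the unblocked ones. With the block 1 of the 20 genes passed and was lower in Mdr1+ cells, where 5.81% of all tested genes rose and 6.57% fell. Unadjusted p was under 0.05 for 9 of the 20 genes in the blocked model, against 28.2% of all tested genes. The gene that passed was Fermt3, which encodes kindlin-3, the kindlin of blood cells. Fermt3 was at 237.4, 389.9 and 212.7 CPM in Mdr1+ libraries 1 to 3, and at 310.9, 429.2 and 316.2 CPM in Mdr1- libraries 1 to 3. The groups overlapped because both libraries of replicate 2 were high, and within each number the Mdr1+ library was lower, at 0.76, 0.91 and 0.67 times its Mdr1- partner. The log2 fold change was -0.36 ± 0.10 with the block (SE, adjusted p = 0.048) and -0.33 ± 0.26 without it (adjusted p = 0.69). Permuting the library labels exactly (two-sided) gave p = 0.3, where 3 against 3 allows no less than 0.1. Without 1 library the unblocked value ran from -0.64 (without Mdr1+ replicate 2) to -0.16 (without Mdr1- replicate 2). In blocked models without replicate 1, 2 and 3 the number of adhesion genes that fell was 3, 1 and 5, Fermt3 being called in each, and 6.26%, 3.66% and 12.1% of all genes tested there fell. These models share libraries and are not independent repeats. The neighbour gene Trpt1 overlaps Fermt3 in RefSeq GRCm38.p6 and averaged 2.91 CPM in the Mdr1+ and 3.11 CPM in the Mdr1- group.

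Tln1, the talin gene of T cells and the other tested activator, was at 1267, 1512 and 1544 CPM in Mdr1+ and at 1460, 1581 and 1561 CPM in Mdr1- libraries. The Mdr1+ library was lower in each of the 3 pairs, and the log2 fold change of -0.09 ± 0.17 (SE) missed the threshold in both fits (adjusted p = 0.89, and 0.47 with the block). Its 95% interval was -0.47 to 0.29 without the block and -0.27 to 0.08 with it.

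Itgb7, the beta chain of the gut-homing integrin, was at 1052, 1167 and 1142 CPM in Mdr1+ libraries and at 1331, 1497 and 1247 CPM in Mdr1- libraries. Every Mdr1+ library lay under every Mdr1- library. Mdr1+ cells averaged 1121 ± 60.6 CPM and Mdr1- cells 1358 ± 127.1 CPM (SD, n = 3 each). The log2 fold change was -0.28 ± 0.17 (SE). It did not pass (adjusted p = 0.59, and 0.058 in the blocked model). Groups without overlap, as here, were seen for 3 of the 20 genes, 1 higher and 2 lower in Mdr1+ cells, against 19.7% of all tested genes.

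Itga4, the alpha chain that pairs with Itgb7 or Itgb1, was at 1234, 1097 and 1340 CPM in Mdr1+ libraries and at 1138, 959.9 and 1212 CPM in Mdr1- libraries. The ranges overlapped, and the log2 fold change of 0.15 ± 0.18 (SE) did not pass (adjusted p = 0.81, and 0.22 with the block). Itgb1 was at 689.5, 441.1 and 417.4 CPM in Mdr1+ and at 632.8, 363.5 and 364.4 CPM in Mdr1- libraries. Both libraries of replicate 1 were high, and within each number the Mdr1+ library was higher, by 1.09, 1.21 and 1.15 times. The log2 fold change of Itgb1 was 0.19 ± 0.28 (SE; adjusted p = 0.86, and 0.14 with the block).

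Because Itga4 can join either beta chain, the ratio of Itgb7 to Itgb1 counts was taken within each library. It was 1.53, 2.65 and 2.74 in Mdr1+ and 2.10, 4.12 and 3.42 in Mdr1- libraries. The ratio was lower in the Mdr1+ library of each of the 3 pairs, while the groups overlapped. The log2 ratio averaged 1.16 ± 0.47 in the Mdr1+ group and 1.63 ± 0.50 in the Mdr1- group (SD, n = 3 each), a difference of -0.47 with p = 0.4 in a two-sided exact permutation test that does not use the pairs (0.8 after adjustment over 4 ratios). Within pairs 1, 2 and 3 the log2 ratio differed by -0.46, -0.64 and -0.32. An exact permutation within the pairs gave p = 0.25 (two-sided), the smallest that 3 pairs allow. The other 3 ratios, Itgb2 to Itgb1, Itgal to Itga4 and Itgav to Itgb3, differed by -0.07, -0.04 and 0.30 on the log2 scale, with exact permutation p = 0.7, 0.9 and 0.2 (two-sided, adjusted 0.9, 0.9 and 0.8).

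The chains of LFA-1 were close between the groups. Itgal was at 632.5, 782.5 and 791.8 CPM in Mdr1+ and at 645.3, 672.0 and 721.3 CPM in Mdr1- libraries, with a log2 fold change of 0.11 ± 0.17 (SE, adjusted p = 0.85). Itgb2 was at 739.2, 895.8 and 700.8 CPM in Mdr1+ and at 691.4, 806.2 and 633.5 CPM in Mdr1- libraries, with one of 0.13 ± 0.18 (SE, adjusted p = 0.84). Both overlapped between groups, and neither passed with the block (adjusted p = 0.44 and 0.29). The 95% interval of the fold change was 0.83 to 1.41 for Itgal and 0.83 to 1.46 for Itgb2.

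**Figure D3:**
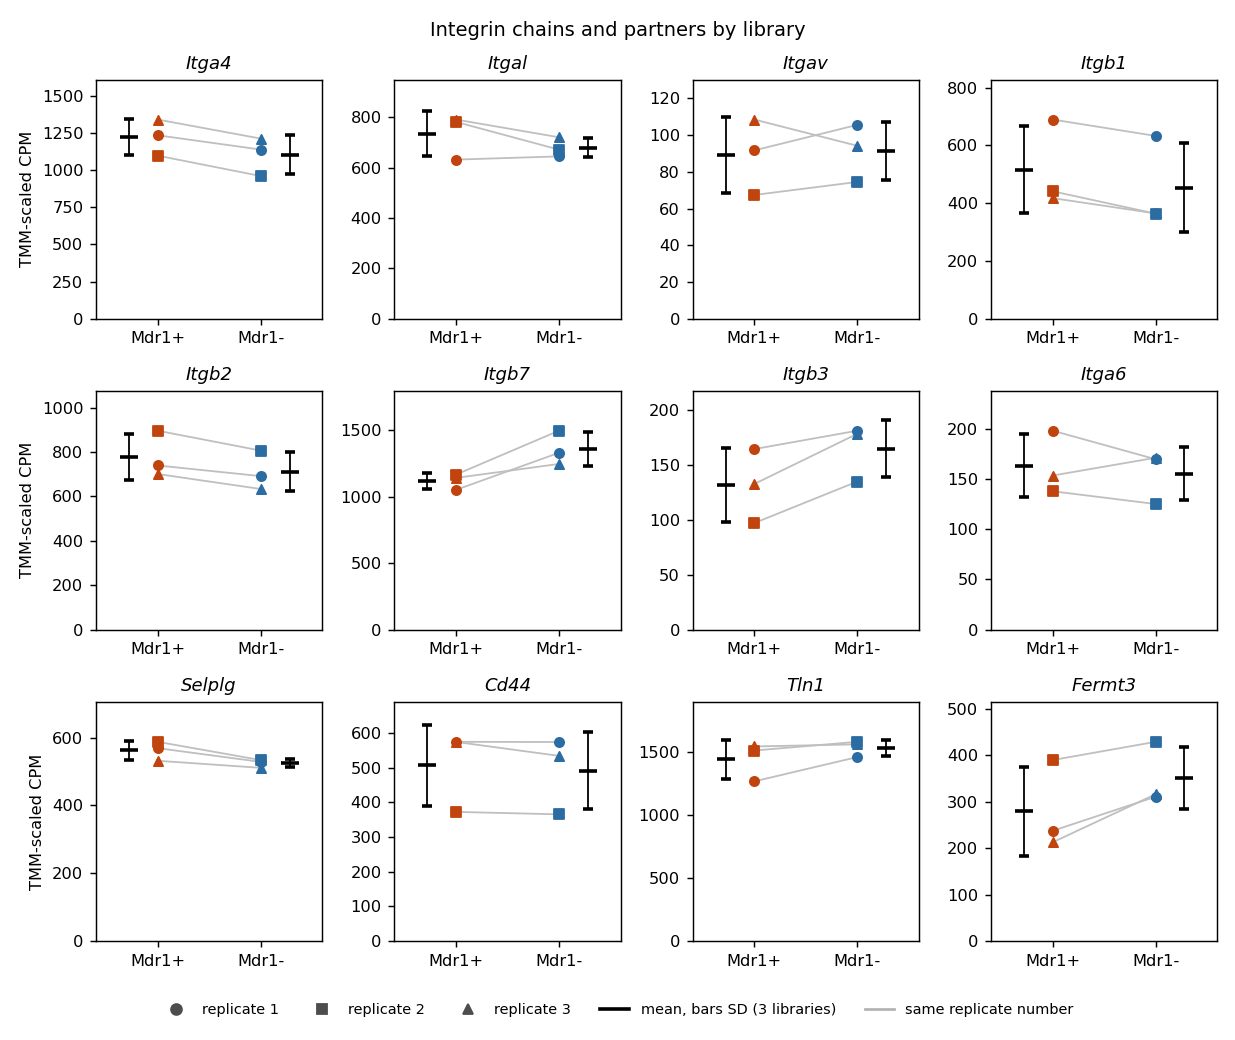
TMM-scaled CPM (y axes, linear from 0) of 12 adhesion genes in the Mdr1+ (left of each panel) and Mdr1- libraries; symbols are replicate numbers, grey lines link libraries of 1 number, and black bars give means with SD. Itgb7 is the panel without overlap between the groups. Fermt3, Itgb3, Itgb7 and Tln1 are lower in the Mdr1+ library of every pair, and Itga4, Itgb1, Itgb2, Selplg and Cd44 are higher.

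Itgb3, the beta chain that joins Itgav in vitronectin receptors and Itga2b on platelets, was at 164.2, 97.0 and 132.5 CPM in Mdr1+ and at 180.9, 134.7 and 178.1 CPM in Mdr1- libraries. Mdr1+ was lower in each pair, at 0.91, 0.72 and 0.74 times, and the groups overlapped. The log2 fold change of -0.33 ± 0.22 (SE) missed the threshold (adjusted p = 0.64, and 0.058 with the block). Itgav was at 91.7, 67.4 and 108.5 CPM in Mdr1+ and at 105.6, 74.5 and 94.2 CPM in Mdr1- libraries, with a log2 fold change of -0.05 ± 0.22 (SE, adjusted p = 0.96).

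Itga2b, the platelet alpha chain, was low but counted in every library, at 5.48, 5.94 and 9.90 CPM in Mdr1+ and at 3.68, 3.03 and 4.58 CPM in Mdr1- libraries. Its groups did not overlap, and its log2 fold change of 0.88 ± 0.42 (SE) did not pass (adjusted p = 0.47, and 0.18 with the block). The 10 platelet and megakaryocyte markers summed to 0.332 to 3.30 CPM in Mdr1+ and 0.346 to 1.36 CPM in Mdr1- libraries, and 6 of them, Pf4 and Gp9 among these, were at 0 in all 6. Gp5 was at 0.166, 0.514 and 3.30 CPM in Mdr1+ and at 0.67, 0.346 and 1.36 CPM in Mdr1- libraries. The part of platelets in the Itga2b level was not tested.

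The collagen-binding alpha chains Itga1 and Itga2 are neighbours in the genome and lay in opposite directions. Itga1 was at 21.4, 13.4 and 43.9 CPM in Mdr1+ and at 11.5, 10.9 and 29.7 CPM in Mdr1- libraries, higher in Mdr1+ in each pair. Itga2 was at 21.4, 21.5 and 46.2 CPM in Mdr1+ and at 31.4, 34.0 and 58.6 CPM in Mdr1- libraries, lower in Mdr1+ in each pair. Both genes were highest in the libraries of replicate 3, and their groups overlapped. Neither passed, with log2 fold changes of 0.55 ± 0.52 and -0.52 ± 0.36 (SE, adjusted p = 0.74 and 0.65). With the block they were 0.58 ± 0.20 and -0.53 ± 0.15 (SE, adjusted p = 0.10 and 0.056). The unblocked values moved when 1 library of replicate 3 was left out. Itga1 was at 0.01 without Mdr1+ replicate 3 and at 1.17 without Mdr1- replicate 3, and Itga2 at -0.94 and -0.18 in the same fits. Without both libraries of replicate 3, Itga1 was at 0.60 and Itga2 at -0.64. With the block they were then at 0.54 and -0.65. Pelo overlaps Itga1 in RefSeq GRCm38.p6 and averaged 14.6 CPM in the Mdr1+ and 19.0 CPM in the Mdr1- group, and since the strand setting of the counting is not given, reads of the 2 genes may not be fully separated.

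None of the remaining 4 tested alpha chains passed with or without the block. Itga7, a laminin-binding chain, averaged 35.3 ± 3.02 CPM in the Mdr1+ and 45.1 ± 6.39 CPM in the Mdr1- group (SD, n = 3 each), with groups that just missed each other at 37.7 and 37.9 CPM and a log2 fold change of -0.36 ± 0.19 (SE, adjusted p = 0.54, and 0.16 with the block). Itga6 was at 197.9, 137.7 and 153.3 CPM in Mdr1+ and at 169.5, 125.0 and 171.0 CPM in Mdr1- libraries, with overlapping groups and a log2 fold change of 0.07 ± 0.20 (SE, adjusted p = 0.93). Itga3 averaged 6.82 CPM in the Mdr1+ and 10.7 CPM in the Mdr1- group (adjusted p = 0.63). Itga10 averaged 4.89 CPM in the Mdr1+ and 1.91 CPM in the Mdr1- group (adjusted p = 0.58), and it stood at 9.90 CPM in Mdr1+ replicate 3, against at most 2.94 CPM in the other 5 libraries. Its log2 fold change was 1.18 with all libraries, 0.32 without Mdr1+ replicate 3 and 0.14 without both libraries of replicate 3.

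Selplg, the backbone of selectin binding on T cells, was at 569.2, 587.9 and 531.9 CPM in Mdr1+ and at 528.6, 534.0 and 511.1 CPM in Mdr1- libraries. It varied little, and its log2 fold change of 0.10 ± 0.15 (SE, adjusted p = 0.86, and 0.43 with the block) had a 95% interval of -0.24 to 0.45. Cd44, a marker of antigen-experienced T cells, was at 574.2, 372.1 and 573.9 CPM in Mdr1+ and at 573.6, 365.0 and 533.7 CPM in Mdr1- libraries, with a log2 fold change of 0.05 ± 0.24 (SE, adjusted p = 0.97). The libraries of replicate 2 were low in both groups, and within pairs the ratio was 1.00, 1.02 and 1.08.

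Icam1, a ligand of LFA-1 that activated lymphocytes also carry, was at 520.7, 245.1 and 571.6 CPM in Mdr1+ and at 500.4, 198.3 and 438.9 CPM in Mdr1- libraries, again with both libraries of replicate 2 low. Its log2 fold change was 0.23 ± 0.39 (SE, adjusted p = 0.87) without the block and 0.25 ± 0.09 (SE, adjusted p = 0.11) with it. Icam2, a ligand of LFA-1 on resting lymphocytes and endothelium, averaged 31.0 ± 3.61 CPM in the Mdr1+ and 31.2 ± 3.63 CPM in the Mdr1- group (SD, n = 3 each), with a log2 fold change of -0.01 ± 0.21 (SE, adjusted p = 0.99). The 9 endothelial markers summed to 0.472 to 0.831 CPM in Mdr1+ and 2.12 to 3.55 CPM in Mdr1- libraries. Of the 9, 5 were at 0 in all 6 libraries, Kdr and Tie1 among these. Most of the Mdr1- sums was Cdh5, at 1.79, 2.42 and 1.87 CPM in replicates 1, 2 and 3. The part of the endothelial markers in the Icam2 level was not tested.

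Some adhesion genes differed between replicate numbers in both sorted fractions. In the block fit the replicate number terms passed for 7 of the 20 genes (Icam1, Itgb1, Cd44, Itga1, Fermt3, Itga2 and Itgb3), against 17.0% of all tested genes. Icam1 had the smallest adjusted p of these (0.00047) and averaged 510.6, 221.7 and 505.2 CPM over both groups in replicates 1, 2 and 3. Itgb1 followed (adjusted p = 0.0015), at 661.1, 402.3 and 390.9 CPM. The labels do not say what the replicate numbers stand for. Of the 20 genes 8 were higher and 6 lower in the Mdr1+ library of each pair, where 28.2% and 24.6% of all tested genes were.

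**Figure D4:**
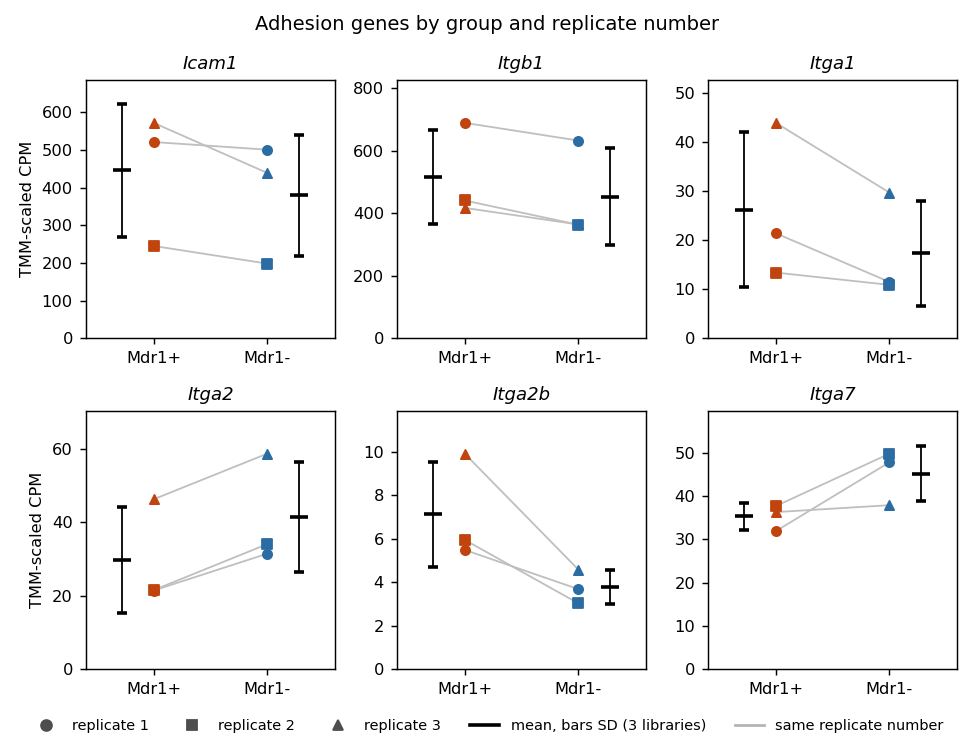
TMM-scaled CPM (y axes, linear from 0) of 6 adhesion genes in the Mdr1+ (left of each panel) and Mdr1- libraries, with symbols for replicate numbers, grey lines joining libraries of the same number and black bars for the mean and SD of 3 libraries. Icam1 is low in both libraries of replicate 2, Itgb1 is high in both of replicate 1, Itga1 and Itga2 are high in both of replicate 3, and Itga2b and Itga7 do not overlap between groups.

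Genes around the integrins were read from 5 further lists, on integrin activation, the adhesion complex, glycosylation of selectin ligands, other adhesion receptors and ligands, and linkers and sheddases of CD44. Of their 83 tested genes 0 rose and 1 fell in Mdr1+ cells, where 0.275% and 1.95% of all tested genes did, and with the block 3 rose and 9 fell, where 5.81% and 6.57% did. The gene that fell in both fits was Cd48, a ligand of CD2 and 2B4 on blood cells. It was at 181.6, 171.8 and 190.0 CPM in Mdr1+ and at 304.8, 295.9 and 313.5 CPM in Mdr1- libraries, far apart relative to the spread within each group. Its log2 fold change was -0.75 ± 0.15 (SE, adjusted p = 0.038, and 0.00071 with the block).

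In the adhesion complex list 1 of 26 tested genes rose and 3 fell with the block, against 5.81% and 6.57% of all tested genes. Flna, an actin crosslinker that binds beta chain tails, was at 3011, 2495 and 3120 CPM in Mdr1+ and at 4164, 4178 and 4598 CPM in Mdr1- libraries, without overlap, and passed with the block (-0.59 ± 0.08, SE, adjusted p = 0.0024) and not without it (0.18). The actin crosslinker gene Actn1 (-1.24) and the calpain gene Capn2 (-0.31), whose protease cuts talin, fell with the block too (adjusted p = 0.0086 and 0.037), and the scaffold gene Nedd9 rose (0.52, adjusted p = 0.0064).

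Of 22 tested genes on integrin activation 1 rose and 1 fell with the block, against the same 5.81% and 6.57%. They were Sipa1l1 (0.33, adjusted p = 0.043), which encodes a GTPase-activating protein of Rap, and Adap1 (-1.15, adjusted p = 0.0042), which encodes a GTPase-activating protein of Arf6 and, despite its symbol, is not the T cell adaptor ADAP, encoded by Fyb. Among 12 tested glycosylation genes the sialyltransferase gene St3gal6 rose with the block (1.27, adjusted p = 0.014), at 45.9 ± 13.2 CPM in the Mdr1+ and 19.7 ± 4.34 CPM in the Mdr1- group (SD, n = 3 each), and the sulfotransferase gene Chst2 fell (-0.48, adjusted p = 0.043), 1 gene each way against 5.81% and 6.57% of all tested genes.

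Among 14 tested receptors and ligands 4 fell with the block, where 6.57% of all tested genes did, among them Cd48, the integrin-associated gene Cd47 (-0.36, adjusted p = 0.022) and Spp1, which encodes the integrin ligand osteopontin (-3.01, adjusted p = 0.018). Spp1 was at 1.83, 0.234 and 2.36 CPM in Mdr1+ and at 2.90, 3.03 and 60.1 CPM in Mdr1- libraries, so that its mean rests on Mdr1- replicate 3, the library with the highest myeloid marker sum. Of 9 tested linkers and sheddases of CD44, such as Ezr, Msn and Adam17, 0 passed in either fit.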

How the data were processed

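RNA of 6 libraries (3 Mdr1+, 3 Mdr1-) was sequenced from stranded total RNA libraries, per the labels' protocols. The authors deposited 1 table of raw counts by gene symbol, which is used here. Per the submitters' processing notes, the tools were TopHat, HTSeq and DESeq2 and the build mm9. Neither versions nor annotation nor strand setting are stated in the sources, and no coordinates are printed because the annotation used here has another build. Gene order and overlaps come from RefSeq GRCm38.p6, in which all 33 symbols matched, and exon lengths from GENCODE M21. Reads without a unique position were 67.0% to 73.2% of all entries in the 4 libraries of replicates 1 and 2, and reads in no feature 13.2% to 19.7%. Both classes stayed out of library sizes.

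The replicate 3 columns were assigned to the gene names sorted ignoring case. Spearman correlations across genes with replicates 1 and 2 were 0.424 to 0.460 as deposited and 0.926 to 0.962 after this step. Results without replicate 3 do not depend on it. No 2 replicates of a group agreed within sampling noise (chi-square per degree of freedom of 14.5 to 53.7), so each library counted as 1.

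The count test was run in edgeR 4.0.16 under R 4.3.3, with TMM scaling, filterByExpr and the robust quasi-likelihood F test over all 10897 tested genes, with Benjamini-Hochberg adjustment and a threshold of 0.05. The SE is the size of the log2 fold change over the root of F. The fit was checked for its median log2 fold change on simulated data with known fold changes. Those data held no differences between replicate numbers, so error rates under such differences were not checked. Deviations from group means (log2 CPM, prior count of 2) of libraries with the same number correlated at 0.41, 0.57 and 0.21, all over 0.1. In the block fit libraries were therefore treated as paired by number, on these data alone and with no statement in the labels. The main fit, without the block, did not use the pairs. Alternatives were other size factors, no low-count filter, no robust step, DESeq2 1.42.0, the replicate block, and leaving out each library or number. Within-library ratios used exact permutation (scipy 1.17.1), and permutation within pairs was added after the values were seen. A floor of 3 counts is 0.144 to 1.35 CPM. The test of the replicate number terms was added after the values were seen. Named genes were all 33 members, and of the further lists those passing in either fit, at most 12, of which 1 is not reported here. Members and lists were chosen with earlier results of these data known.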

Additional observations from a re-analysis of the deposited data

How the results depend on the processing

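Over 17 alternative fits the tested adhesion genes gave 340 log2 fold changes, of which 315 changed neither sign nor side of the threshold, 16 changed sign and 9 passed under the alternative alone. With other size factors and without the robust step no adhesion gene changed sign or passed. Calls of adhesion genes appeared in fits with the replicate block, where 1 fell with all libraries and 1 to 5 fell when a replicate number was left out. Fermt3 passed in each of these block fits, at -0.36 with all libraries (adjusted p = 0.048) and at -0.41, -0.47 and -0.29 without replicate 1, 2 and 3 (adjusted p = 0.018, 0.017 and 0.032). The fits share libraries, so they are not independent repeats. With all libraries the block changed the call of no other adhesion gene. Itgb7 passed with the block without replicate 1 (-0.31, adjusted p = 0.032) and without replicate 3 (-0.37, adjusted p = 0.014), and Itgb3 without replicate 1 (-0.52, adjusted p = 0.013). Itga2 (-0.65), Itga7 (-0.52) and Tln2, which is tested there, passed without replicate 3. The median log2 fold change of 0.06 became -0.07 without the low-count filter and -0.08 in DESeq2, where 30 adhesion genes enter, and ranged from -0.11 to 0.07 when libraries or numbers were left out.

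Signs changed for 6 genes, with main values from -0.05 (Itgav) to 0.23 (Icam1), none of which passed there. Without Mdr1+ replicate 1 the values were -0.14 for Itga6, -0.12 for Itgb1, 0.04 for Icam2 and -0.10 for Cd44. Without Mdr1- replicate 2 they were -0.06 for Itga6, -0.08 for Icam1, 0.03 for Icam2 and -0.13 for Cd44. Itgav was at 0.13 without Mdr1+ replicate 2 and 0.03 without Mdr1- replicate 1, and Cd44 at -0.05 without Mdr1+ replicate 3 and -0.01 with the block without replicate 3. Without replicate 1 Itga6 was at -0.08 and Icam2 at 0.08, and with the block at -0.06 and 0.07. Over libraries and numbers left out, values ran from -0.14 to 0.18 for Itga6, -0.20 to 0.13 for Itgav, -0.12 to 0.47 for Itgb1, -0.08 to 0.53 for Icam1, -0.15 to 0.08 for Icam2 and -0.13 to 0.23 for Cd44. The difference in the Itgal to Itga4 ratio was 0.01 without replicate 1 and lay between -0.08 and 0.01 over the numbers left out. Pairing by number left the differences of all 4 ratios as they were, with paired exact permutation p of 0.25 to 0.75, an alternative chosen after seeing the data. The cause was not tested.

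Over all tested genes 30 rose and 212 fell. With the replicate block 633 rose and 716 fell, without the low-count filter 52 rose, and in DESeq2 103 rose and 381 fell. Leaving out 1 library gave 1 to 15 that rose and 75 to 196 that fell, and leaving out 1 number 0 to 5 and 0 to 108, with 0 of each without replicate 3. With the block 436 rose and 694 fell without replicate 1, 259 and 392 without replicate 2, and 1131 and 1347 without replicate 3. In Mdr1+ replicate 3 the floor of 3 counts is 1.35 CPM, which limits what can be seen there of the 13 untested genes.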
